A study of Homo sapiens with 4 samples.

Results

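Autophagy genes were examined for binding by YTHDF1 in SNU638, a cell line established from human gastric cancer. The group held 40 genes of the core autophagy machinery, and its members were found by the gene symbol of each peak in the authors' deposited table of RNA immunoprecipitation sequencing (RIP-seq) peaks. Of these 40 genes, 21 had at least 1 listed peak and 19 had none. The 21 genes held 71 of the 24754 peaks in protein-coding genes, out of 26819 distinct peaks in 7550 genes in all. The study had 4 libraries, 2 of RNA immunoprecipitated with YTHDF1 (IP-YTHDF1) and 2 of input RNA. In both groups the cells overexpressed YTHDF1, were kept without serum for 24 h and were then exposed to IFN-γ at 10 ng/ml for 24 h. Per the methods, the overexpressed protein was pulled down through an antibody to FLAG, an added tag, so binding by the cell's own YTHDF1 was not measured. No untreated cells and no cells without the overexpression were compared here, so what IFN-γ changed cannot be read from the values.

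Autophagy is the process by which a cell encloses its own material in a double membrane, the autophagosome, and degrades it in the lysosome. The ULK kinase complex starts it, a class III phosphatidylinositol 3-kinase complex marks the growing membrane, ATG9 and ATG2 proteins supply lipid, and ubiquitin-like conjugation attaches ATG8 proteins (the LC3 and GABARAP families) to the membrane, where cargo receptors dock. YTHDF1 is a cytoplasmic protein that recognises N6-methyladenosine (m6A) in RNA, and transcripts of ATG2A and ATG14 have been described elsewhere as its targets.

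Each peak was a 50 bp window with 1 score (the authors' signal value, whose scale is not stated), 1 p-value and 1 q-value. No sample or group is named for these values, so IP-YTHDF1 against input is their presumed contrast. The paper describes its protein-coding peaks as the union of replicates. Whether a listed peak rests on 1 replicate or on both cannot be read here. There was no value per library, so depth and the spread between replicates are unknown, no test of 1 group against the other could be run, and every score and q-value below is the authors' own. A gene without a listed peak may be unbound, weakly covered or not expressed, and these cannot be told apart here. As a look at the cell type, 4 of 6 epithelial marker genes had a peak (EPCAM, KRT8, KRT18 and KRT19, but not CDH1 and CLDN4). Of 6 immune and stromal marker genes 0 had one, and of all coding genes 31.8% did. With 6 genes per list these counts say little, and a peak is not a measure of expression.

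Autophagy transcripts carried peaks in each step of the pathway, with the single transcription factor TFEB as the exception. The share of genes with a listed peak was 52.5% (21 of 40), beside 31.8% of the 20056 protein-coding genes of RefSeq, a background that includes genes that these cells may not express. With the q-value limit set to 0.001, 16 genes of 40 had a peak (40%, beside 21.2% of all coding genes). The same number, 16 genes, had a peak with a score of at least 2 (40%, beside 22.0%). When p-values were held to a Bonferroni limit over all windows counted in listed genes, 9 of the 40 genes were left (22.5%, beside 12.6%). These 9 were RB1CC1, ATG13, BECN1, PIK3R4, AMBRA1, WIPI2, ATG5, ATG16L1 and ATG4B. The count of windows behind this limit leaves out every gene without a listed peak. It is also too low where a gene's list was cut short, so the limit is lenient. RB1CC1 and ATG4B lay closest to it and would be the first to drop out under a full count. No set test was run on these shares.

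By strength the autophagy peaks lay in the middle of the table. Their scores lay between 0.97 and 2.67. The median was 1.83, as it was over all coding peaks. Taking each gene's strongest peak, the 21 genes had a median of 2.32, beside 2.23 for the 6679 coding genes with a peak. The strongest peak was above the latter value in 12 of the 21 genes and below it in 9. In 3 genes (ATG16L1, ATG5 and WIPI2) it exceeded the 75th percentile of all coding genes, which was 2.56, and in none did it exceed the 90th percentile, which was 2.93.

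**Figure D1:**
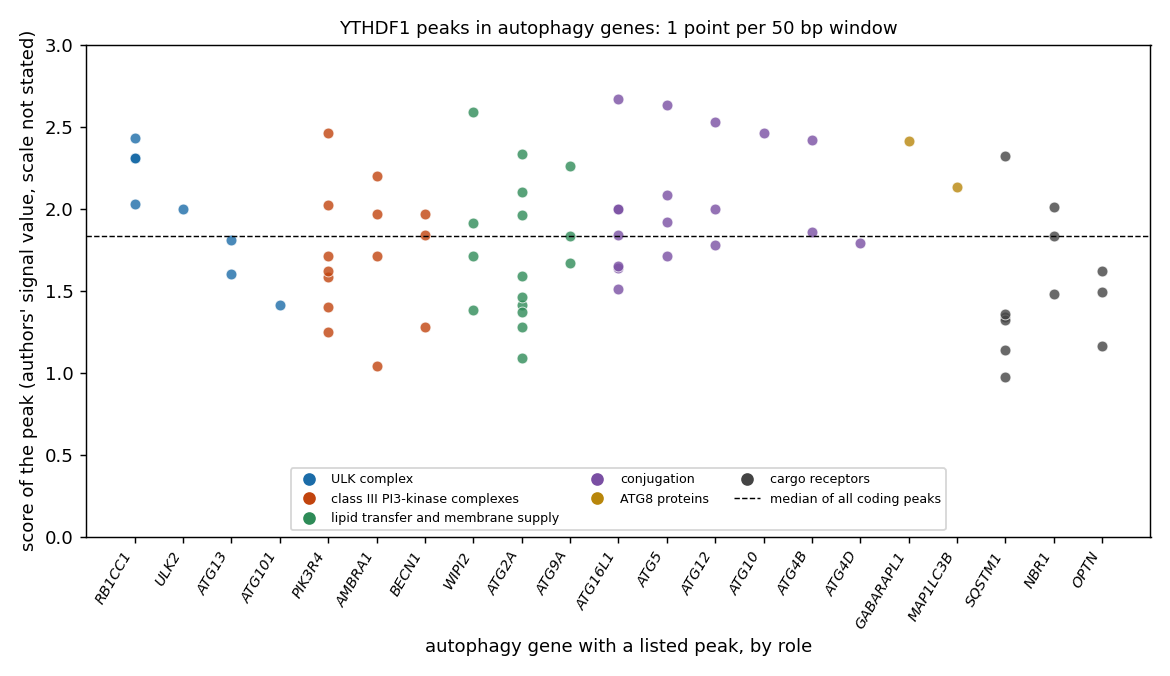
The score of each listed 50 bp window (vertical axis, scale not stated) is plotted for the 21 autophagy genes with a peak (horizontal axis), grouped and coloured by role, with the median of all coding peaks as a dashed line. ATG16L1 and ATG5 reach the highest scores, 2.67 and 2.63, while 5 of the 6 SQSTM1 windows lie under 1.40.

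**Figure D2:**
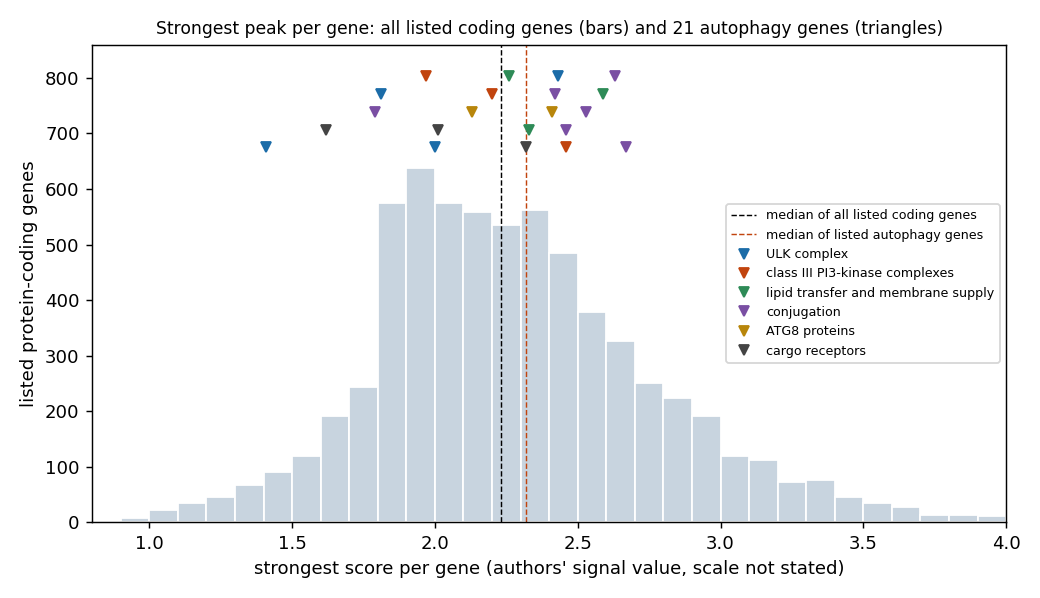
Bars count listed protein-coding genes by the score of their strongest window (horizontal axis, in steps of 0.1; 32 genes at 4 or above are not drawn). Triangles, stacked for legibility and with no meaning in height, mark the 21 autophagy genes by role; they span 1.41 (ATG101) to 2.67 (ATG16L1), with a median of 2.32 beside 2.23 for all coding genes.

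Among the 6 genes of the ULK complex and its kinases, which start autophagosome formation, 4 had a peak. RB1CC1, the large scaffold also known as FIP200, had 5 windows on the minus strand of chromosome 8. Read 5′ to 3′, the scores were 2.43, 2.31, 2.31, 2.31 and 2.03, so that each of them exceeded the median of coding peaks. The first 4 began between 27 and 277 bases from the gene's start in RefSeq, and the window nearest the start, chr8:52714359-52714408, was the strongest with a q-value of 4.71e-06. The 3 windows with a score of 2.31 shared a p-value of 1.4e-06 as well. ATG13, the adaptor that holds the complex together, had 2 windows at opposite ends of the gene. One began 25 bases from the start with a score of 1.81 and a q-value of 2.98e-06, and the other lay near the 3′ end with a score of 1.60 and a q-value of 6.02e-07. ULK2, a kinase of the complex, had 1 window 357 bases from the start, with a score of 2.00 and a q-value of 0.00871. ATG101, the partner of ATG13, had the lowest strongest score of the 21 genes, 1.41, with a q-value of 0.000191, and its window ended 599 bases before the gene's 3′ end. No peak was listed for ULK1 and ULK3.

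Of 6 genes for the class III PI3-kinase complexes, which make the lipid phosphatidylinositol 3-phosphate, 3 had a peak. PIK3R4, the regulatory subunit also called VPS15, had 7 windows on the minus strand of chromosome 3. From 5′ to 3′ their scores were 1.62, 1.40, 2.46, 1.71, 1.25, 2.02 and 1.58, an uneven series in which the third and the sixth stood highest. The strongest, at chr3:130746535-130746584, had a q-value of 1.52e-09 and exceeded the strongest peak of 68.4% of coding genes. All 7 PIK3R4 windows began in the first 2095 bases of a gene that spans 67896 bases in RefSeq. The weakest of them, with a q-value of 0.0484, was the closest of all 71 peaks to the table's limit of 0.05.

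BECN1, the scaffold subunit Beclin 1, had 3 windows with scores of 1.84, 1.97 and 1.28 from 5′ to 3′. The first pair had a common q-value of 7.32e-07 and lay within 500 bases of the start, while the third had a q-value of 0.0345. AMBRA1, a regulator of Beclin 1, had 4 separate windows spread over a gene of 197612 bases, with scores of 2.20, 1.04, 1.71 and 1.97 from 5′ to 3′. The highest of its scores did not come with the lowest q-value: the window at 2.20 had 0.00929, and the window at 1.97, near the 3′ end, had 1.4e-07. No peak was listed for ATG14, the subunit that directs the complex to autophagosome formation, nor for PIK3C3, the catalytic subunit, or UVRAG.

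Of 6 genes for lipid transfer and membrane supply, 3 had a peak. ATG2A encodes a lipid transfer protein that feeds the growing membrane. It was the single autophagy gene with 9 windows (1 of 21, 4.76%, beside 12.8% of coding genes with a peak), and 9 is the highest number that occurs in the names of the windows in the table. ATG2A lies on the minus strand of chromosome 11, and its windows fell in 3 stretches. The 5′ stretch, chr11:64908997-64909896, held 5 windows with scores of 1.46, 1.09, 1.96, 1.37 and 2.10 from 5′ to 3′. A lone window followed at chr11:64907797-64907846, with a score of 1.28. The 3′ stretch, chr11:64902047-64902646, began with the strongest window, at 2.33 and a q-value of 0.000184, and ended with windows at 1.59 and 1.41. Scores were above the median of coding peaks in 3 of the 9 windows, those at 1.96, 2.10 and 2.33, and the outermost windows of the listed span lay below it.

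The list for ATG2A was not complete. The deposited q-values match a Benjamini-Hochberg adjustment within each gene (in 4233 of 4234 genes with 2 to 8 windows), and q divided by p then gives the place of a window in the order of p-values. At 76 windows tested, the smallest number that put 4 of the 5 distinct q-values of ATG2A at whole places (within 0.5%), the strongest window took place 2 and the weakest, with a q-value of 0.0414, place 15. By this reading at least 15 windows of ATG2A passed the limit, of which 6 or more are not listed. Windows are numbered by position, and the 7313 bases of the gene on the 5′ side of the listed ones held none. Whether ATG2A was bound close to its start therefore cannot be read from the table. In the 14 genes with 2 to 7 windows the listed windows alone gave back every q-value within 2%, so no such gap was seen there. The 6 genes with a single window cannot be checked in this way, because the number of windows tested is taken from that window itself.

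**Figure D3:**
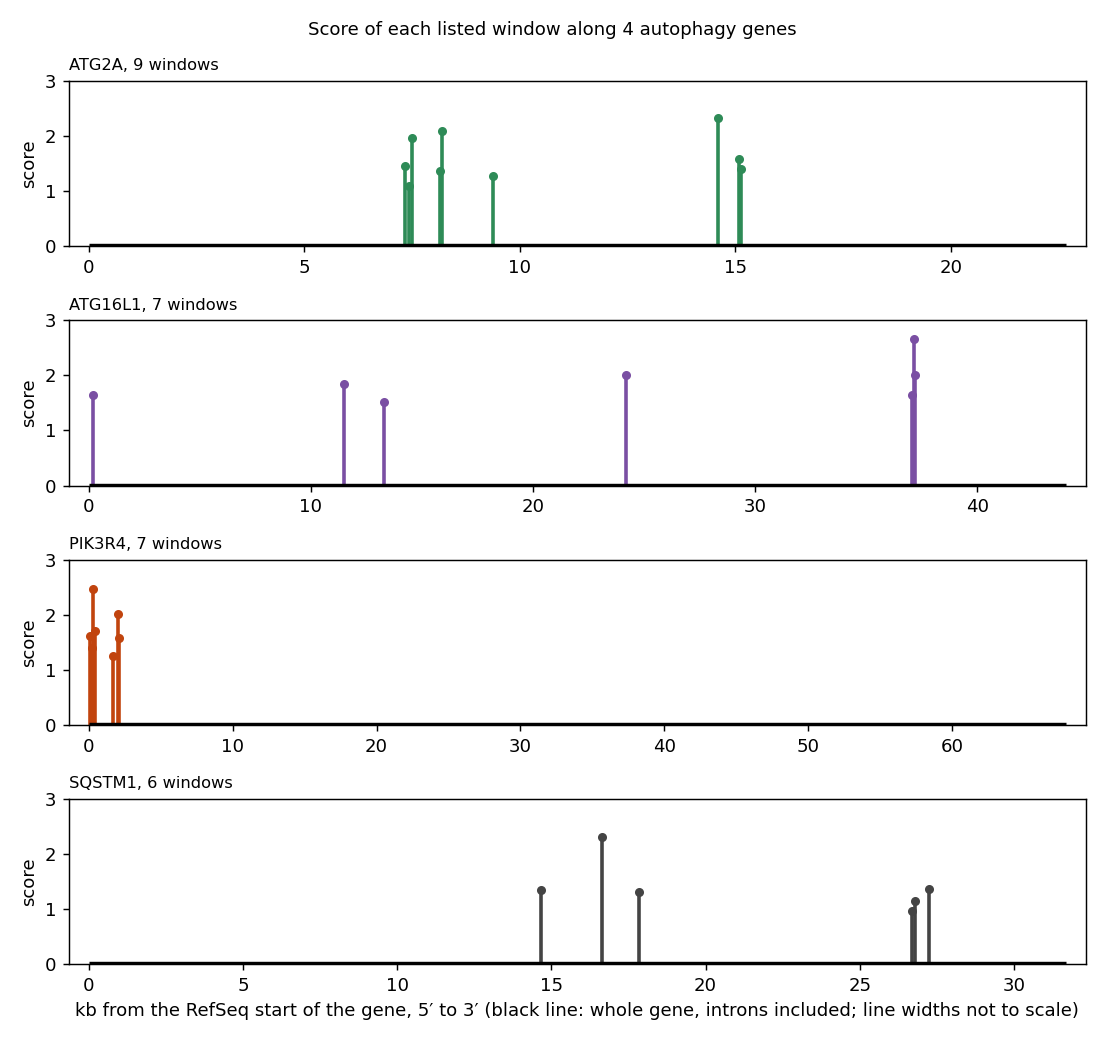
Score of each listed window (vertical axis, from 0) along ATG2A, ATG16L1, PIK3R4 and SQSTM1. The horizontal axis is the distance in kb from the gene's outermost RefSeq start (5′ to 3′, introns included). The 9 ATG2A windows form 3 stretches, the first beginning 7313 bases from the start, those of ATG16L1 are spread over the gene, those of PIK3R4 crowd at the start, and those of SQSTM1 begin 14656 or more bases from the start.

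WIPI2, which reads phosphatidylinositol 3-phosphate and recruits ATG16L1, had 4 windows on the plus strand of chromosome 7. In 5′ to 3′ order the scores were 1.38, 2.59, 1.91 and 1.71. The first 3 adjoined each other and began between 64 and 164 bases from the start, while the last began 35614 bases from it. The window at 2.59, chr7:5190347-5190396, had the smallest q-value of all autophagy peaks, 4.31e-13, and exceeded the strongest peak of 76.3% of coding genes. ATG9A, the scramblase carried by small vesicles, had 3 separate windows with scores of 1.83, 2.26 and 1.67 from 5′ to 3′, and the smallest q-value was 9.64e-05. The third of these, at 1.67, overlapped a listed window of AC068946.2 on the same strand, so reads there could belong to either gene. No peak was listed for ATG2B, ATG9B and WIPI1.

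Conjugation is the step that couples ATG12 to ATG5 and ATG8 proteins to lipid, and 6 of its 11 genes had a peak. ATG16L1, ATG5 and ATG12 gave 3 of the 4 highest strongest scores of the group. ATG16L1, which positions the ATG12-ATG5 conjugate at the membrane, had 7 windows on the plus strand of chromosome 2. Their scores from 5′ to 3′ were 1.64, 1.84, 1.51, 2.00, 1.65, 2.67 and 2.00. The window at chr2:233288802-233288851 was the strongest autophagy peak, with a q-value of 5.2e-09, and exceeded the strongest peak of 80.3% of coding genes. It lay 37129 bases from the start and 6818 bases from the end of the gene. Both windows at 2.00 shared a p-value of 0.000113, although they lay 13000 bases apart.

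ATG5 had 4 windows in 2 neighbouring pairs on the minus strand of chromosome 6. The pair near the gene's start, chr6:106325574-106325673, had scores of 1.92 and 2.63 from 5′ to 3′, and the stronger window had a q-value of 3.61e-07. The second pair, chr6:106316124-106316223, had scores of 2.08 and 1.71 and began 43 bases from another RefSeq start of the gene, so that both pairs lay next to a start. ATG12, the ubiquitin-like partner of ATG5, had 3 adjoining windows at chr5:115841401-115841550 that formed 1 region of 150 bp. Their scores rose from 1.78 through 2.00 to 2.53 in the 5′ to 3′ direction, and the last had a q-value of 6.66e-06. ATG10, the enzyme that joins ATG12 to ATG5, had a single window 201 bases from the start of a gene of 284111 bases, at chr5:81972224-81972273, with a score of 2.46 and a q-value of 0.000327. Of the proteases that process ATG8 proteins, ATG4B and ATG4D were listed: ATG4B had 2 windows with scores of 2.42 and 1.86, and ATG4D had 1 with a score of 1.79 and a q-value of 0.0425. ATG3, ATG7, ATG16L2, ATG4A and ATG4C had no listed peak.

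Bases could be read for windows that a RefSeq promoter sequence (GRCh38.p14, from 250 bases before to 50 after a start) overlaps, which was so for 25 or more bases of 6 windows in 5 of the genes. The stretches below are shown because they are the part of the bound windows near a start for which bases were at hand. Those of ATG5 lay at -186 and -216 bases from the start in their promoter sequence, so before it, though after the gene's outermost start. They were searched on the strand of the gene for DRACH, the m6A consensus, in which D is A, G or T, R is A or G, and H is A, C or T. Each line gives at most 30 bases in the 5′ to 3′ direction, and capitals mark a DRACH match.
ATG5, chr6:106325594-106325623, minus strand, strongest window: caggcgggcagcttgccccgccgccccacc
ATG5, chr6:106325624-106325653, minus strand, neighbouring window: ctgctaccgcgtccccgcaGGACAgtgtgt
ATG9A, chr2:219229601-219229630, minus strand: cAGACAcccggcctagcgccgcgggtcgcg
ATG12, chr5:115841521-115841550, minus strand: ggcggaggagccgcagtctgtgttgcagct
ATG13, chr11:46617578-46617602, plus strand: AAACActaacgatggcggcgccggg
MAP1LC3B, chr16:87392354-87392383, plus strand: gcagcagccgccgcccccgggagccgccgg
A match was present in 3 of these 6 windows, in ATG13, ATG9A and the weaker ATG5 window, and the stronger ATG5 window, covered over its full 50 bases, had none. Only 2 of the autophagy windows, both in ATG5, were covered in full, and 1 of them held DRACH. Of 407 listed coding windows covered in full, 39.1% held DRACH, and so did 44.8% of the last 50 bases of 22199 coding promoter sequences. These shares cannot be set beside the 3 of 6, because the other windows were covered only in part. The last 50 bases of a promoter sequence also lie after its start, unlike the ATG5 windows. A match is a string of letters and does not show that the base is methylated or bound.

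Among the 5 genes for ATG8 proteins, which coat the autophagosome membrane, 2 had a peak, each with 1 window. In GABARAPL1 it lay 232 bases from the start with a score of 2.41 and a q-value of 0.000178. In MAP1LC3B, which encodes the LC3 protein used to mark autophagosomes, it lay 18 bases from the start with a score of 2.13 and a q-value of 0.00200. No peak was listed for MAP1LC3A, GABARAP and GABARAPL2.

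Cargo receptors bind ubiquitin-tagged material and ATG8 proteins at once, and 3 of 5 had a peak. SQSTM1, the receptor p62, had 6 separate windows on the plus strand of chromosome 5, with scores of 1.34, 2.32, 1.32, 0.97, 1.14 and 1.36 from 5′ to 3′. A single window thus stood above the median of coding peaks, and the window at 0.97 was the lowest of all 71 peaks. The q-value was smallest for the window at 2.32, 3.71e-05, and largest for the window at 0.97, 0.0244. Between them the order of q-values did not follow that of scores, as the window at 1.14 had 0.000255 and that at 1.32 had 0.00344. NBR1, a receptor related to p62, had 3 windows with scores of 1.83, 2.01 and 1.48, and OPTN, optineurin, had 3 with scores of 1.62, 1.49 and 1.16. No window of these 3 receptors lay within 500 bases of the outermost start of its gene, although the first SQSTM1 window, at 1.34, began 144 bases from a RefSeq start inside the gene. TAX1BP1 and CALCOCO2 had no listed peak, and neither had TFEB, the transcription factor of lysosomal and autophagy genes.

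Peaks near the gene start were common in the group. Within 500 bases of the outermost RefSeq start lay 26 of the 71 windows (36.6%), beside 24.0% of 22550 coding windows that could be placed in their gene. At least 1 such window was found in 14 of the 21 genes (66.7%, beside 43.0% of 6124 coding genes), and the strongest window was among them in 12 (57.1%, beside 30.5%). By role, these windows occurred in 5 of 6 listed conjugation genes, 3 of 4 listed ULK complex genes and both listed ATG8 genes. They occurred in 2 of 3 listed genes each for PI3-kinase complexes and lipid transfer, and in 0 of 3 listed cargo receptors. The SQSTM1 window 144 bases from a start inside the gene is not counted here. Within 500 bases of the gene's end no autophagy gene had a window, beside 5.05% of coding genes. Distances were measured along the genome with introns included, and whether a window lay in a coding or untranslated exon was not analysed here. A list that stops at 9 windows, as for ATG2A, may lack windows near the start or end. Such lists made up 12.8% of coding genes with a peak and 4.76% of the autophagy ones. The shares beside which the group stands may therefore be too low, and the difference from the other genes was not tested.

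**Figure D4:**
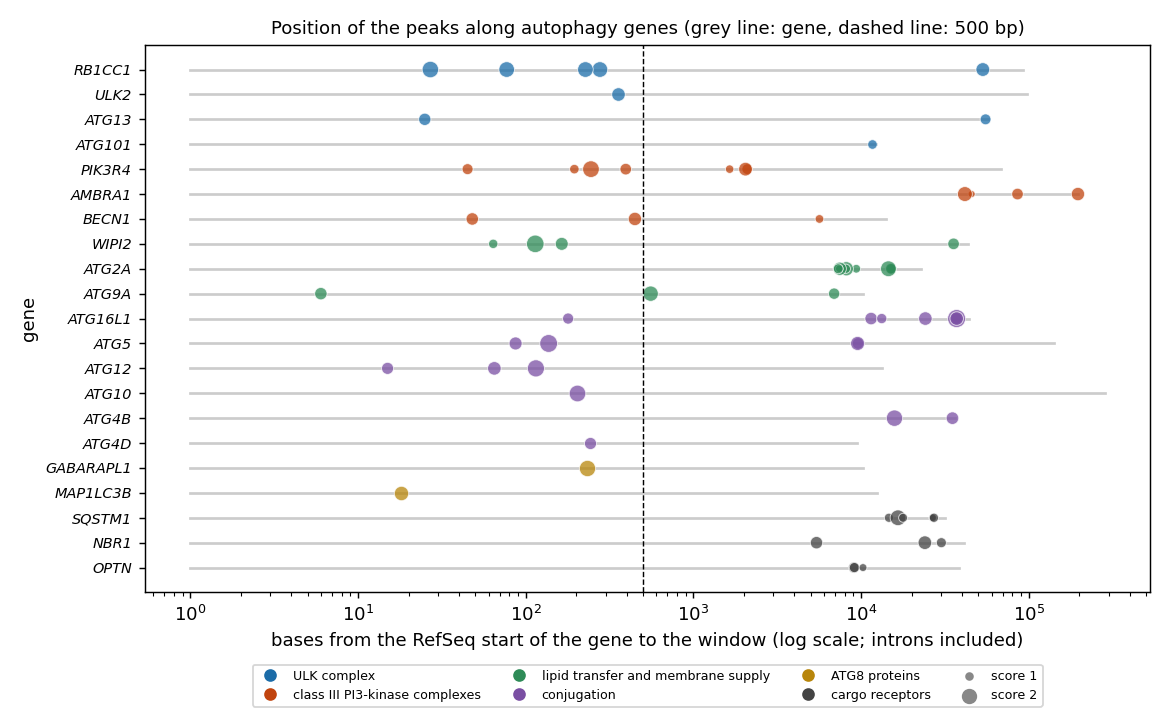
Each point is a listed window, with its area scaled to the square of the score. The horizontal axis (log scale) is the number of bases between the outermost RefSeq start of the gene and the window. Grey lines show the length of each gene and the dashed line stands at 500 bases; 14 of the 21 genes have a point on its left, and the 3 cargo receptors at the bottom have none.

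Most listed windows touched no other listed window of their gene. Joined where they touched, the 71 windows gave 56 regions. Of these, 43 were a single window, 11 were pairs and 2, in ATG12 and WIPI2, were runs of 3. The 43 include the genes with only 1 window. Windows apart on the genome may adjoin in spliced RNA, and need not be far apart, as the PIK3R4 windows all began in the first 2095 bases. No share over all coding genes was worked out for these regions. A single window was all that was listed for 6 of the 21 genes (28.6%, beside 29.0% of coding genes with a peak). Pairs of windows with the same score and the same p-value occurred in RB1CC1 and ATG16L1, 2 of the 15 genes with more than 1 window (13.3%, beside 11.3%).

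The share of tested windows that was listed differed widely between the genes. It is not a share of the transcript, as the part that was tested is not given. Dividing q by p gave between 6 windows tested, in GABARAPL1, and 154, in AMBRA1, for the 20 genes other than ATG2A, with a median of 30.5 beside 33 for coding genes. In genes with a single listed window this number assumes that no other window passed. Of the windows tested, 25% were listed in ATG12 (3 of 12), 20% in ATG5 (4 of 20) and 18.4% in ATG16L1 (7 of 38). AMBRA1 was lowest at 2.60% (4 of 154), and WIPI2, despite its small q-value, had 4.12% (4 of 97). The median over the 20 genes was 6.07%, beside 8.33% for coding genes. Both coding medians cover the 5983 genes whose listed windows gave back their q-values, not all 6679 with a peak.

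Other genes of autophagy, from a list of 34 outside the 40, had a listed peak in 21 (61.8%, again beside 31.8% of coding genes), with 85 windows and a median strongest score of 2.30. All 8 genes for membrane and lipid kinase factors had one, namely WDR45, WDR45B, ZFYVE1, NRBF2, RUBCN, BCL2, VMP1 and TMEM41B. A peak was listed for 5 of 8 genes for selective autophagy and for 5 of 8 genes for fusion with the lysosome. The count was 3 of 8 among transcription factors and lysosomal genes (FOXO3, LAMP1 and CTSB) and 0 of 2 among further ATG8 genes. The 3 strongest were BNIP3L, a mitophagy receptor, with a score of 3.23 and a q-value of 6.73e-13, RETREG1, a receptor for the endoplasmic reticulum, with 2.92 and 3.2e-08, and TMEM41B, a lipid scramblase, with 2.90 and 1.21e-11. Each of these scores exceeded the 2.67 of ATG16L1, the highest of the 40 core genes.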

How the data were processed

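RIP-seq of YTHDF1 in SNU638 cells gave 4 libraries, 2 per group, grouped by their titles. The submitters' processing notes name STAR 2.7.3a and GRCh38, and the peak caller is not given in the sources used here. The authors deposited 1 table of 50 bp windows with a score (the signal value, and its rank), a p-value and a q-value per peak. It holds 0 columns per library, so depth is unknown. Of 26820 rows, 1 exact repeat was dropped. Starts are printed counted from 1.

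Members were matched by gene symbol, and all 40 were found in RefSeq (GRCh38.p14, 20056 coding genes, with 6370 of 6674 listed coding symbols matched). Windows inside the RefSeq interval of their gene (97.3% of coding windows with a unique symbol) were placed by distance from its outermost start, and promoter sequences were found for 36 members. Windows tested in a gene were counted by dividing q by p (p-values above 1e-14). This step was tested on simulated data, where accuracy was required only for complete lists. The windows counted summed to 298184, the number behind the Bonferroni limit and the Benjamini-Hochberg adjustment over all windows. In genes whose list stops at 9 windows the division can give too few, and ATG2A entered the sum with fewer than 76. Windows tested in genes without a listed peak are not in the sum at all. The sum is therefore too low, and both limits are more lenient than a full count would make them.

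All 40 members were to be accounted for, with ATG2A, ATG14, the members with 9 windows and the 5 with the strongest window (6 with a tie) in full, and the 3 strongest further genes. Members and lists were chosen with earlier results of these data known. Distances from the start were added after the data were seen. No test was run on the group. The tools were matplotlib 3.10.9, NumPy 2.4.6 and pandas 2.3.3 in Python 3.11.15.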

Additional observations from a re-analysis of the deposited data

How the results depend on the processing

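No paired analysis was possible because no column belongs to a single replicate, and for that reason no library could be left out. The shares by transcript region and the motif share over all autophagy peaks, with their alternatives, were not run, since no genome or exon annotation was used here. The number of autophagy genes with a peak stayed within 1.5 times of 21 except under the Bonferroni limit over all windows, which left 9 genes with 13 peaks and a median strongest score of 2.43. At a q-value of at most 0.001 there were 30 peaks in place of 71, with a median strongest score of 2.42, and at a score of at least 2 there were 26 peaks with the same median. The mean score per gene in place of the strongest one gave a median of 1.90. Benjamini-Hochberg over all windows (65 peaks), joined windows (56 regions), leaving out shared windows (70 peaks) and synonyms (71 peaks) kept counts within 1.5 times. The number of windows behind the Bonferroni and Benjamini-Hochberg settings covers only genes with a listed peak. It is also too low where lists were cut short, so both settings are lenient. The Benjamini-Hochberg setting moreover started from peaks that had already passed the authors' limit, so it is a weak check of the gene count.

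Of the 26 peaks in 14 genes within 500 bases of the gene start, a q-value of at most 0.001 left 16 in 9 genes, a score of at least 2 left 13 in 9 genes, and the Bonferroni limit left 8 in 6 genes. These losses follow from the stricter limits themselves, and the shares of all coding genes under them were not worked out. A distance of 250 bases gave 22 peaks in 13 genes (61.9% of listed genes, beside 35.5% of coding genes). A distance of 1000 bases gave 27 in 14 genes (66.7%, beside 49.1%). The nearest start upstream of a window gave 29 in 15 genes (71.4%, beside 50.7%). The share of coding genes thus also rose with the wider settings. By windows, the shares were 31.0%, 38.0% and 40.8% in the same order, beside 16.6%, 30.6% and 28.8% of coding windows. All settings for these distances were chosen after the data were seen.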
